A study of Mus musculus with 48 samples.

Results

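Parvalbumin (PV) interneurons of hippocampal area CA1 were compared with pyramidal cells of dorsal CA1, gene by gene. The comparison takes 6 of the 48 RNA-seq libraries of a series that profiled 16 cell populations of the mouse hippocampus, 3 libraries each. Its members are the 3 PV libraries and the 3 dorsal CA1 libraries of the deposited count table, with all 37620 gene rows, of which 13584 had enough reads to be tested. Fluorescent neurons were sorted by hand from microdissected slices, and the RNA of each pool was amplified before library construction. Both populations are labelled as located in CA1. The mouse lines that carried the fluorescence, the age and sex of the mice and any treatment are not given in the sources used here. Nor is the number of cells per pool. The source name of the PV group, PV interneurons, gives no position along the dorsal to ventral axis. The 2 groups thus differ in cell type and possibly in mouse line, age, sex, treatment, number of cells and this position. The series describes its 3 libraries per population as biological replicates, and p-values measure only the spread between these libraries. Because each library is a bulk sample, fewer cells of a type and less RNA per cell cannot be told apart, and every level is relative to the reads of its own library.

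PV interneurons release GABA onto the soma, the axon initial segment or the proximal dendrites of pyramidal cells, and many of them fire fast, brief action potentials without adaptation. That firing rests on Kv3 potassium channels, fast AMPA receptors, a synchronous release machinery and a high energy supply, and many PV cells are wrapped in a perineuronal net. They arise in the medial ganglionic eminence, where Lhx6 and Sox6 act in their specification. Pyramidal cells arise in the cortical ventricular zone, release glutamate, carry spines rich in CaMKII and calcineurin, and send the output of CA1.

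The libraries held between 22115411 and 30077876 reads on genes. Spiked ERCC RNA, added in proportion to cell number, took between 0.151 and 0.207% of counted reads in the PV libraries and between 0.511 and 1.01% in the dorsal libraries. Reads of the mitochondrial genome took between 19 and 24.5% of gene reads in the PV libraries and between 9.41 and 9.73% in the dorsal libraries. The part of these differences in the results was not tested, except that leaving the mitochondrial-genome genes out gave 4959 called genes against 4962 with them. The PV libraries varied more among themselves than the dorsal libraries, with a biological coefficient of variation of 0.619 against 0.384. Levels are given as CPM, gene reads scaled to the TMM-adjusted library size, as mean ± SD over 3 libraries, and fold changes as log2 of PV over dorsal ± SE.

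Of the 13584 genes tested, 4962 (36.5%) were called at an edgeR adjusted p under 0.05. PV cells were higher for 2567 genes (18.9% of those tested) and dorsal CA1 cells for 2395 genes (17.6%). The median fold of the called genes was 3.98 where PV was higher and 3.24 where dorsal CA1 was higher, and 855 and 605 genes differed by at least 10-fold. Every PV library lay above every dorsal library for 3602 genes (26.5%), and the reverse held for 3363 genes (24.8%). The median log2 fold change over all tested genes was 0.06. These shares are the background against which each gene list below was read, and the lists were chosen with earlier results of these data known.

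**Figure D1:**
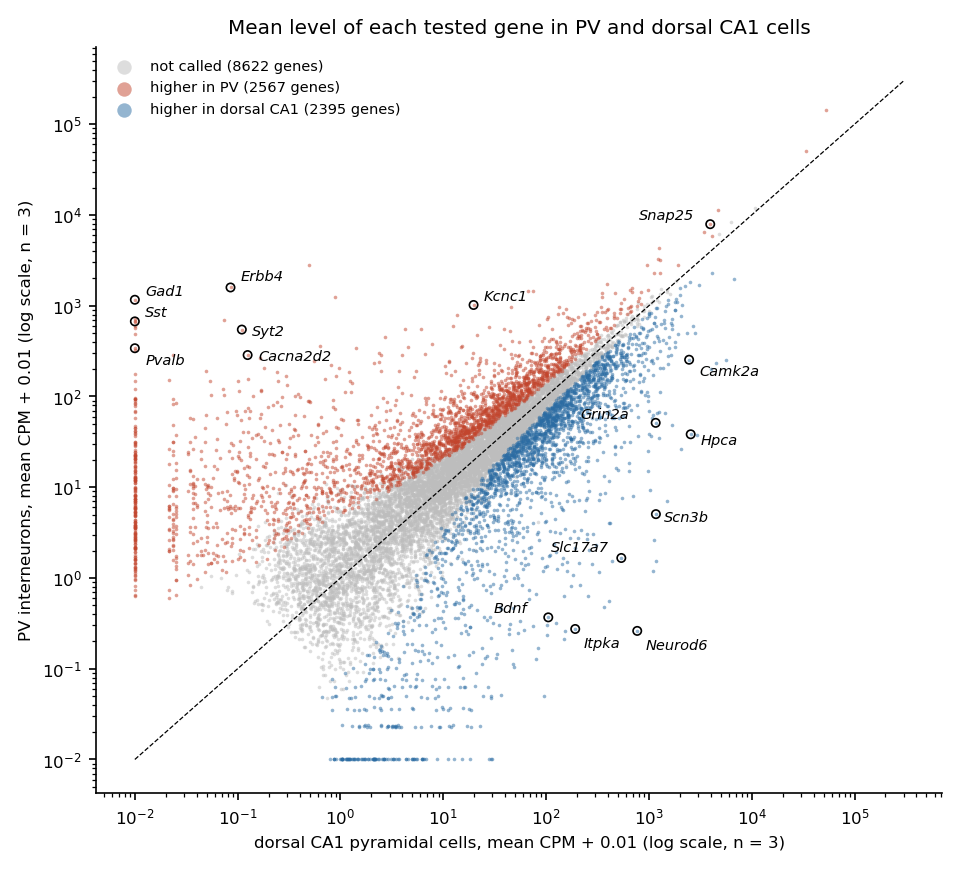
Mean CPM of each of the 13584 tested genes in dorsal CA1 cells (x axis) and PV interneurons (y axis), both on log scales with 0.01 added and n = 3 libraries per group. The 2567 genes higher in PV (red) reach the left edge, where the dorsal mean is 0, and the 2395 genes higher in dorsal CA1 (blue) reach the lower edge, where the PV mean is 0.

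The labels were first set beside defining genes. Of 18 listed PV interneuron markers 17 had enough reads to be tested, and all 17 were higher in PV cells. Of 14 listed CA1 pyramidal cell markers 13 were tested, and all 13 were higher in dorsal CA1. A gene with 0 reads in 1 group passed the filter on low counts only through the other group. Its direction was thus fixed in advance, here and in the lists below. Pvalb (ENSMUSG00000005716), which encodes the calcium buffer that names the PV cells, gave 381, 323 and 316 CPM in the PV libraries and 0 reads in all 3 dorsal libraries. The groups did not overlap, and against a floor of 3 reads per library Pvalb was at least 2853-fold higher in PV (edgeR adjusted p = 9.49e-08). Fibcd1, a marker of CA1 pyramidal cells, gave 3.59, 5.9 and 0.365 CPM in the PV libraries and 180, 216 and 161 CPM in the dorsal libraries. Wfs1, an endoplasmic reticulum membrane protein that marks pyramidal cells of dorsal CA1, gave 99.2, 39.3 and 60.5 CPM in the PV libraries and 1390, 1527 and 1374 CPM in the dorsal libraries. Both were thus low but present in the PV libraries and high in every dorsal library (57.2-fold for Fibcd1 and 21.9-fold for Wfs1). In ventral CA1 cells Fibcd1 came to 303 ± 92.3 CPM, but Wfs1 only to 89 ± 21.1 CPM, near its 66.3 ± 30.4 CPM in PV cells. Wfs1 thus separates PV cells from dorsal CA1 cells, not from all CA1 pyramidal cells. Floors and counting intervals in the text cover counting error only.

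Promoter windows are printed for 4 of these identity genes, because Pvalb and Tac1 were read only in the PV libraries of this comparison and Wfs1 and Nrgn are defining genes of the other side. The sequences are from RefSeq on GRCm38.p6, run 5′ to 3′ on the strand of the gene, and cover 250 bases before to 50 bases after the annotated start. Capitals mark TAATTA, the core of many homeodomain sites such as those of Dlx and Lhx proteins, and CAGATG, an E-box form read by Neurod-class proteins, each searched on both strands, so that CAGATG also appears as CATCTG. The first of 2 Pvalb windows lies at chr15:78206351-78206650 on the minus strand, and Tac1 at chr6:7554811-7555110 on the plus strand. Wfs1 lies at chr5:36988933-36989232 on the minus strand and Nrgn at chr9:37552696-37552995 on the minus strand.
Pvalb: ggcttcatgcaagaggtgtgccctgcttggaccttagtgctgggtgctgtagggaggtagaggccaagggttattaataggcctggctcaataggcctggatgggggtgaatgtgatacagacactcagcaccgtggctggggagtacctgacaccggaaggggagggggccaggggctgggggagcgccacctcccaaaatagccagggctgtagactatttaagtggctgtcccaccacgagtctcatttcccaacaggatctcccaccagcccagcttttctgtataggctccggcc
Tac1: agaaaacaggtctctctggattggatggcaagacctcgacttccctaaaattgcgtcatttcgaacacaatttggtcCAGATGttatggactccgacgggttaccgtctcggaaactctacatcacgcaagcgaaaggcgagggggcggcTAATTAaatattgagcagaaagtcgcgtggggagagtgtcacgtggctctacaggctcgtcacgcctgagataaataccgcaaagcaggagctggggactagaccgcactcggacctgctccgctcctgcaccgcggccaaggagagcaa
Wfs1: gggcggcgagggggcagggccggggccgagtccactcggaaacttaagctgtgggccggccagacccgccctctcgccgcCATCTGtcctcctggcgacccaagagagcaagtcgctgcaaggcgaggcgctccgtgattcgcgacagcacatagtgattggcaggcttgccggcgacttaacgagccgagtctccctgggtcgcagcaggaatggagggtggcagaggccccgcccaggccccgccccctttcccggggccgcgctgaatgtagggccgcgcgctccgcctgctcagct
Nrgn: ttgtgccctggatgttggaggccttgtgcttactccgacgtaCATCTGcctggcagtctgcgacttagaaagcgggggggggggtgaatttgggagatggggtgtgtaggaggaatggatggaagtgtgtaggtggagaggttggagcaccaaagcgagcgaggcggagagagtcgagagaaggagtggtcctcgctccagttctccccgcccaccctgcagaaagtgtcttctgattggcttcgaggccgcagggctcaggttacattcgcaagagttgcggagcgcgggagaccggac

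Neither motif was found in the Pvalb window. The Tac1 window held TAATTA from 100 bases before the start and CAGATG from 173 bases before it, and CAGATG stood 170 bases before the start of Wfs1 and 208 before that of Nrgn. Of 32851 promoters in the RefSeq table, 5.29% held TAATTA and 17.2% held CAGATG. Among the promoters of genes higher in PV the shares were 2.5 and 12.6%, among those of genes higher in dorsal CA1 2.32 and 12.1%, and among those of all tested genes 2.67 and 11.3%. The motif shares of both directions were thus close to those of the genes tested, and a match is a string of letters, not a measured site.

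Markers of other cell types were low in both groups. Of 8 astrocyte markers, 9 microglia markers and 9 endothelial, mural or choroid plexus markers, 1 each passed the filter on low counts, as did 2 of 10 oligodendrocyte lineage markers, and none of these was called. The summed astrocyte markers came to 1.02 to 24.6 CPM in the PV libraries and 1.48 to 1.53 CPM in the dorsal libraries, and the summed oligodendrocyte lineage markers to 6.7 to 37.8 and 13.8 to 27.1 CPM. The summed microglia markers came to 0.325 to 10.5 and 0.478 to 1.76 CPM, and the summed vascular markers to 0.0406 to 8.83 and 3.88 to 10.1 CPM. PV replicate 2 had the highest astrocyte, oligodendrocyte and microglia sums. Without that library 4751 genes were called, 2369 higher in PV and 2382 higher in dorsal CA1.

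Several genes that mark somatostatin (SST) interneurons were also read in the PV libraries. Of 10 SST interneuron markers tested, 7 were higher in PV than in dorsal CA1, none was lower and 3 were not called. Sst, the somatostatin gene, gave 952, 815 and 249 CPM in the PV libraries and 0 reads in all 3 dorsal libraries. Npy, the neuropeptide Y gene, gave 868, 928 and 213 CPM and 0 reads. PV replicate 3 was low for both and also for Tac1 (534, 625 and 302 CPM), while the Pvalb levels given above lay close together. Crhbp, which encodes a binding protein for corticotropin-releasing hormone, gave 722, 908 and 525 CPM and 0 reads. The SST libraries of the series held 4746 ± 1766 CPM of Sst, against 672 ± 373 CPM in PV cells (log2 fold change -2.84 ± 0.454, edgeR adjusted p = 0.00657). Npy (log2 fold change -1.31 ± 0.67, edgeR adjusted p = 0.386) and Crhbp (-0.88 ± 0.343, edgeR adjusted p = 0.235) were not called between PV and SST cells. Bistratified PV cells of CA1 are known to make both somatostatin and neuropeptide Y. The part of SST cells in the PV pools was not tested. Of 8 tested markers of VIP, CCK and neurogliaform interneurons 2 were higher in PV, 3 in dorsal CA1 and 3 were not called, with a median log2 fold change of 0.81. Vip had 0 reads in all 6 libraries. Prox1, a homeobox gene, gave 2.76, 10 and 2.11 CPM in the PV libraries and 0 reads in all 3 dorsal libraries, and Crh, the corticotropin-releasing hormone gene, gave 0.454, 1.25 and 1.87 CPM in the PV libraries and 0 reads in all 3 dorsal libraries, both called but low, and the Crh call was lost without dorsal replicate 1 and without dorsal replicate 2. On the other side, Lamp5, Cnr1 and Cck were higher in dorsal CA1 (173 ± 27.3 against 1091 ± 23.5 CPM for Cck, log2 fold change -2.69 ± 0.132, edgeR adjusted p = 4.03e-07). Lamp5 came to 1.65 ± 1.19 against 62.3 ± 16 CPM and Cnr1 to 18.9 ± 12.9 against 143 ± 16.2 CPM.

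Genes of the inhibitory transmitter stood on the PV side. Of 8 genes of GABA synthesis, packaging and uptake tested, 7 were higher in PV and 1 in dorsal CA1, with a median log2 fold change of 7.73. Gad1 (ENSMUSG00000070880), a GABA-synthesizing enzyme, gave 1093, 1142 and 1255 CPM in the PV libraries and 0 reads in all 3 dorsal libraries, at least 9767-fold higher in PV (edgeR adjusted p = 1.72e-08). Gad2, the second such enzyme, gave 2660, 3033 and 2765 CPM in the PV libraries and 0, 0.0683 and 1.4 CPM in the dorsal libraries (log2 fold change 12.58 ± 0.884, edgeR adjusted p = 1.45e-05). Slc32a1, the vesicular GABA transporter, was at least 5031-fold higher in PV, at 599 ± 62 CPM against 0 reads. Abat, which breaks GABA down, was 34.9-fold higher in PV (193 ± 31.4 against 5.43 ± 0.901 CPM). Only Slc6a11, a GABA transporter best known from astrocytes, ran the other way within the list (1.18 ± 1.01 against 27.9 ± 1.87 CPM, log2 fold change -4.59 ± 0.666, edgeR adjusted p = 0.000483). Per length, the mean levels of Gad2 and Gad1 in PV cells were 549 ± 39.1 FPKM and 448 ± 38.4 FPKM.

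Of 8 genes of glutamate packaging and transport, 5 were higher in dorsal CA1 and 1 in PV. Slc17a7, which loads glutamate into vesicles, gave 2.06, 1.78 and 1.1 CPM in the PV libraries and 554, 572 and 492 CPM in the dorsal libraries (log2 fold change -8.38 ± 0.255, edgeR adjusted p = 2.4e-08). The PV libraries thus held a small but nonzero level of it. The glial and neuronal glutamate transporter Slc1a2 was 9.32-fold higher in dorsal CA1, while Slc38a2, an amino acid carrier, was 3.2-fold higher in PV. The synaptic zinc transporter Slc30a3 was not called (30.5 ± 6.56 against 45.8 ± 7.58 CPM, log2 fold change -0.62 ± 0.27, edgeR adjusted p = 0.105).

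**Figure D2:**
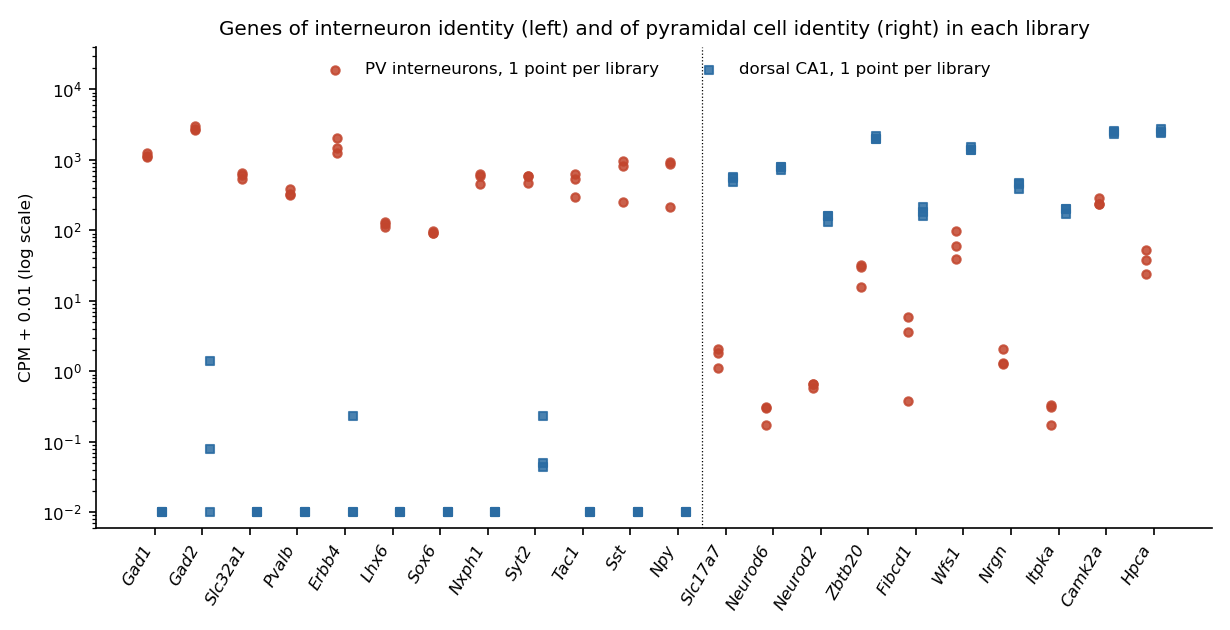
CPM per library on a log scale with 0.01 added, for 12 genes of interneuron identity (left of the dotted line) and 10 genes of pyramidal identity (right), with 1 point per library, red circles for PV and blue squares for dorsal CA1. For every gene shown the 2 groups of 3 libraries lie apart, and Sst and Npy have 1 low PV library at 249 and 213 CPM.

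Transcription factors of each lineage were mostly higher in its own cells. Of 18 interneuron transcription factors tested, 14 were higher in PV, 2 in dorsal CA1 and 2 were not called, and the median log2 fold change was 6.82 with genes at 0 reads set to their lower bound. Lhx6 gave 123, 111 and 132 CPM in the PV libraries and 0 reads in all 3 dorsal libraries and was at least 1026-fold higher in PV. Sox6 gave 96.9, 90.6 and 90.6 CPM and Maf 102, 101 and 86.8 CPM in the PV libraries, with 0 reads of either in the dorsal libraries. Dlx1, a homeobox gene of ganglionic eminence progenitors, was 3412-fold (95% counting interval 1288 to 18256) higher in PV. Mef2c, which has roles in the development of both neuron classes, came to 976 ± 339 against 45.2 ± 10.3 CPM (log2 fold change 4.41 ± 0.268, edgeR adjusted p = 1.65e-06). Zeb2 and Etv1 are on the list but were higher in dorsal CA1, by 3.11-fold and 16.4-fold. The caudal ganglionic eminence genes Nr2f1 (12.5 ± 0.539 against 11.3 ± 0.972 CPM) and Nr2f2 (2.65 ± 2.77 against 1.03 ± 0.43 CPM) were not called, and their groups overlapped.

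Of 25 pyramidal cell transcription factors tested, 22 were higher in dorsal CA1 and 2 in PV, with a median log2 fold change of -4.77. Neurod6, a bHLH factor of excitatory cortical neurons, gave 0.289, 0.303 and 0.162 CPM in the PV libraries and 789, 719 and 801 CPM in the dorsal libraries (log2 fold change -11.58 ± 0.226, edgeR adjusted p = 5.44e-09). Its relative Neurod2 came to 0.623 ± 0.0397 against 150 ± 15.3 CPM. Zbtb20, a repressor needed for CA1 identity, gave 30.5, 32.1 and 15.9 CPM in the PV libraries and 1991, 1978 and 2174 CPM in the dorsal libraries (79.8-fold higher in dorsal CA1). Zbtb18 and Meis2 were 18.5-fold and 167-fold higher in dorsal CA1. Fezf2, known from deep-layer projection neurons of the neocortex, was 1266-fold (95% counting interval 223 to 49199) higher in dorsal CA1. The exceptions were both Cux genes, homeobox factors of upper cortical layers. Cux2 came to 85.1 ± 16.9 CPM in PV and was 5660-fold (95% counting interval 1168 to 257082) higher there. Cux1 was 2.51-fold higher in PV (edgeR adjusted p = 0.0165), and this call was lost in 4 of 17 alternatives.

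Calcium-binding proteins were called in both directions. Of 20 tested, 7 were higher in PV, 6 in dorsal CA1 and 7 were not called, with a median log2 fold change of 0.45. Beside Pvalb, the neuronal calcium sensors Ncald (43.7-fold), Necab1 (21.4-fold) and Ncs1 (2.68-fold) were higher in PV. On the other side stood Hpca, encoding hippocalcin, with 38.2, 24 and 52.7 CPM in the PV libraries and 2420, 2706 and 2526 CPM in the dorsal libraries (log2 fold change -6.09 ± 0.28, edgeR adjusted p = 2.68e-07), and Nrgn, encoding the calmodulin-binding spine protein neurogranin, with 1.24, 2.04 and 1.3 CPM in the PV libraries and 463, 456 and 386 CPM in the dorsal libraries (log2 fold change -8.18 ± 0.242, edgeR adjusted p = 2.4e-08). The calmodulin gene Calm2 was also lower in PV, by 3.51-fold, and gave 1493, 1992 and 2353 CPM in the PV libraries and 6683, 6970 and 6382 CPM in the dorsal libraries, the second largest difference in CPM of any named gene higher in dorsal CA1. Calb1, the calbindin gene, was not called (25.4 ± 21.8 against 70 ± 17.9 CPM), though 3 of 17 alternatives called it, lower in PV.

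Channel families held opposite movements of close relatives. Of 13 sodium channel genes tested, 3 were higher in PV and 5 in dorsal CA1. Scn1a, the Nav1.1 subunit known from the axons of PV interneurons, gave 947, 836 and 1002 CPM in the PV libraries and 136, 166 and 163 CPM in the dorsal libraries (log2 fold change 2.55 ± 0.135, edgeR adjusted p = 6.87e-07). Scn2a, the Nav1.2 subunit, gave 128, 173 and 129 CPM in the PV libraries and 866, 827 and 730 CPM in the dorsal libraries (log2 fold change -2.52 ± 0.148, edgeR adjusted p = 1.3e-06), the opposite direction. Scn3b, an auxiliary beta subunit, gave 6.6, 3.86 and 4.67 CPM in the PV libraries and 1194, 1145 and 1171 CPM in the dorsal libraries, a 237-fold higher level in dorsal CA1. The beta subunit Scn4b was not called (37.1 ± 14.5 against 48.4 ± 3.78 CPM), although it was 0.354 ± 0.529 CPM in SST cells, below PV (log2 fold change 6.73 ± 1.02, edgeR adjusted p = 0.00506).

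In the list of Kv3, Kv2 and modifier potassium channels 6 of 13 were higher in PV and 6 in dorsal CA1. Kcnc1, the Kv3.1 subunit that repolarizes fast-spiking cells, gave 1106, 806 and 1144 CPM in the PV libraries and 22.1, 15.3 and 21.8 CPM in the dorsal libraries (log2 fold change 5.66 ± 0.224, edgeR adjusted p = 1.19e-07). Kcnc2 (Kv3.2) was 6.8-fold higher in PV, and Kcnc4 (Kv3.4) was not called (0.925 ± 0.366 against 0.174 ± 0.0954 CPM). Per length, the mean levels in PV cells were 315 ± 70.9 FPKM for Kcnc1 and 125 ± 11.7 FPKM for Kcnc2. The modifier subunit Kcng4 gave 126, 80.5 and 71.5 CPM in the PV libraries and 0 reads in all 3 dorsal libraries, at least 778-fold higher in PV. Kcns3, another modifier, came to 61.3 ± 18.2 against 5.31 ± 1.17 CPM (log2 fold change 3.50 ± 0.333, edgeR adjusted p = 3.07e-05). Kcnb2, a Kv2 subunit of delayed rectifiers, was 7.54-fold higher in dorsal CA1, as were the modifiers Kcnv1 (49.7-fold) and Kcns2 (22-fold).

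Of 8 Kv1 channel genes 5 were higher in PV and 3 in dorsal CA1. Kcna1 and Kcna2, the Kv1.1 and Kv1.2 subunits of axons, were 3.62-fold and 4.08-fold higher in PV, and Kcnab3, a beta subunit, was 6.21-fold higher. Kcna4 (Kv1.4, an inactivating subunit) gave 0.124, 0.151 and 0.65 CPM in the PV libraries and 131, 125 and 121 CPM in the dorsal libraries (log2 fold change -8.69 ± 0.503, edgeR adjusted p = 1.17e-06). The Kv4 complex divided in the same manner, with 4 of 9 genes higher in PV and 5 in dorsal CA1. Kcnd3, with its partners Kcnip1 (114 ± 39 against 0.0925 ± 0.0485 CPM) and Dpp10 (247 ± 79.2 against 0.538 ± 0.401 CPM), was higher in PV (log2 fold change 2.85 ± 0.248, edgeR adjusted p = 1.7e-05). Kcnd2, the main Kv4 subunit of CA1 dendrites, gave 24.1, 25.7 and 34.3 CPM in the PV libraries and 475, 477 and 458 CPM in the dorsal libraries (log2 fold change -4.10 ± 0.172, edgeR adjusted p = 1.59e-07), and its partners Kcnip4 and Kcnip3 were 9.48-fold and 44.6-fold higher in dorsal CA1.

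Of 16 M-type, EAG and calcium-activated potassium channel genes, 9 were higher in dorsal CA1 and 4 in PV. The M-current subunits Kcnq3 and Kcnq5 were 6.45-fold and 23.3-fold higher in dorsal CA1. Kcnh7, an ERG-type channel, gave 149, 83 and 103 CPM in the PV libraries and 1318, 1296 and 1232 CPM in the dorsal libraries (log2 fold change -3.54 ± 0.213, edgeR adjusted p = 1.5e-06), whereas its relative Kcnh2 was 12.1-fold higher in PV. Among 13 inward rectifier and two-pore channel genes, 5 were higher in dorsal CA1, including Kcnj2 (119-fold) and the G protein-gated subunits Kcnj3 (3.51-fold) and Kcnj6 (7.75-fold). Kcnk3 (19.1-fold) and Kcnk1 (1.67-fold), which encode leak channels, were the 2 higher in PV.

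Calcium channel genes leaned to the pyramidal side, with 8 of 15 higher in dorsal CA1 and 2 higher in PV. Cacna1e, the R-type pore subunit, gave 13.5, 5.14 and 2.23 CPM in the PV libraries and 1576, 1389 and 1547 CPM in the dorsal libraries (log2 fold change -7.78 ± 0.654, edgeR adjusted p = 4.01e-05). The accessory alpha-2-delta subunits exchanged places. Cacna2d1 gave 17.5, 2.84 and 2.31 CPM in the PV libraries and 604, 569 and 480 CPM in the dorsal libraries (log2 fold change -6.21 ± 0.807, edgeR adjusted p = 0.000493), and Cacna2d2 gave 267, 290 and 300 CPM in the PV libraries and 0.12, 0.137 and 0.0902 CPM in the dorsal libraries (log2 fold change 11.16 ± 0.246, edgeR adjusted p = 5.44e-09). The beta subunit Cacnb4 was 2.36-fold higher in PV, and the T-type subunits Cacna1h and Cacna1i were 15.4-fold and 4.23-fold higher in dorsal CA1. Cacna1b, the N-type subunit, was not called (150 ± 38.6 against 202 ± 10.4 CPM). The pacemaker channel genes Hcn2 and Hcn3 were 2.87-fold and 3.37-fold higher in PV, and both calls were lost in 5 of 17 alternatives. Pex5l, which encodes the HCN trafficking subunit TRIP8b, was 35.1-fold higher in dorsal CA1 (18.7 ± 9.71 against 644 ± 45.4 CPM).

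**Figure D3:**
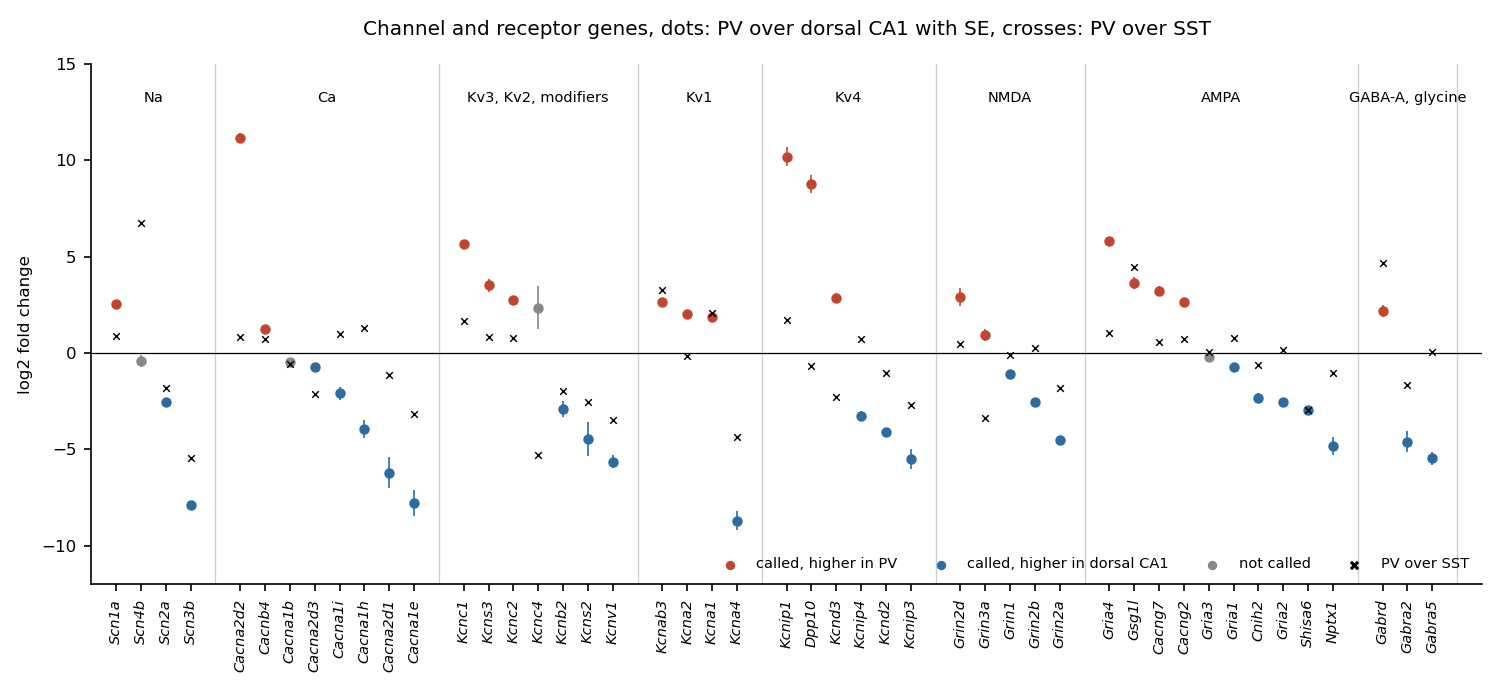
Log2 fold change of PV over dorsal CA1 (dots with SE, coloured by call) for the genes named in the text from 8 channel and receptor lists, leaving out those with 0 to 3 reads in 1 group, with the log2 fold change of PV over SST as crosses where that was tested. Within the lists relatives lie on both sides of 0, such as Cacna2d2 at 11.16 and Cacna2d1 at -6.21.

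AMPA receptor subunits were called in opposite directions. Of 19 AMPA receptor and auxiliary genes tested, 8 were higher in PV and 8 in dorsal CA1. Gria4 (GluA4), a fast-gating subunit typical of PV cells, gave 797, 683 and 877 CPM in the PV libraries and 13, 13.5 and 14.5 CPM in the dorsal libraries (log2 fold change 5.81 ± 0.161, edgeR adjusted p = 1.72e-08). Gria2 (GluA2), the subunit that makes the receptor impermeable to calcium, gave 415, 515 and 567 CPM in the PV libraries and 2801, 2925 and 2755 CPM in the dorsal libraries (log2 fold change -2.53 ± 0.12, edgeR adjusted p = 3.4e-07). Gria1 was 1.66-fold higher in dorsal CA1, and Gria3 was not called (699 ± 66.2 against 788 ± 49.6 CPM). Per length, Gria1 came to 228 ± 16.2 FPKM and Gria2 to 79.1 ± 12.3 FPKM in PV cells, and to 424 ± 18.6 FPKM and 450 ± 8.98 FPKM in dorsal cells. Among auxiliary proteins Cacng2 (stargazin) and Cacng7 were 6.27-fold and 9.33-fold higher in PV and Gsg1l was 12.2-fold higher. Shisa6 and Cnih2 were 7.69-fold and 4.95-fold higher in dorsal CA1, as was Nptx1 (28-fold), a secreted pentraxin that clusters AMPA receptors.

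Of 6 NMDA receptor genes 3 were higher in dorsal CA1 and 2 in PV. Grin2a gave 59.8, 54.3 and 39.6 CPM in the PV libraries and 1190, 1172 and 1130 CPM in the dorsal libraries (log2 fold change -4.53 ± 0.176, edgeR adjusted p = 1.09e-07), and Grin2b gave 271, 263 and 324 CPM in the PV libraries and 1651, 1675 and 1580 CPM in the dorsal libraries (log2 fold change -2.55 ± 0.113, edgeR adjusted p = 2.14e-07). The obligatory subunit Grin1 differed less (2.12-fold higher in dorsal CA1). Grin2d, known from interneurons, came to 25.6 ± 5.6 against 3.32 ± 1.52 CPM and was 7.53-fold higher in PV, and the Grin3a call was lost in 10 of 17 alternatives. Of 9 kainate receptor and related genes 3 were higher in PV. Grik1 was at least 68.1-fold higher, Grik3 gave 103, 138 and 113 CPM in the PV libraries and 0.159, 0.137 and 0.18 CPM in the dorsal libraries, and the auxiliary Neto1 was 7.44-fold higher. Grik5 and Grid1 were 2.99-fold and 2.62-fold higher in dorsal CA1. Among 5 metabotropic receptors Grm5 and Grm7 were 1.81-fold and 4.49-fold higher in dorsal CA1.

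GABA-A and glycine receptor genes were called in both directions, 6 of 14 higher in PV and 5 in dorsal CA1. Gabrd, the delta subunit of extrasynaptic receptors, was 4.5-fold higher in PV (54.5 ± 13.5 against 11.8 ± 2.22 CPM). Gabra5, the extrasynaptic alpha-5 subunit for which CA1 pyramidal cells are known, gave 17, 20 and 7.71 CPM in the PV libraries and 652, 672 and 592 CPM in the dorsal libraries (log2 fold change -5.45 ± 0.334, edgeR adjusted p = 1.69e-06). Gabra2, of receptors at the axon initial segment, was 24.2-fold higher in dorsal CA1. Of 4 GABA-B related genes Gabbr1 and Kctd16 were 1.7-fold and 7.12-fold higher in dorsal CA1, and the auxiliary subunit Kctd8 came to 20.6 ± 7.01 against 0.286 ± 0.0193 CPM (69.6-fold higher in PV). Of 14 genes of the inhibitory postsynapse and chloride transport 8 were higher in dorsal CA1, among them Gphn, the gephyrin scaffold (2.08-fold) and Slc12a5, the chloride extruder KCC2 (1.67-fold). The 2 higher in PV were Slc4a3, a chloride-bicarbonate exchanger (9.97-fold), and Clcn6 (2.12-fold).

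Of 25 neuropeptide and processing genes tested, 16 were higher in PV, 6 in dorsal CA1 and 3 were not called, with a median log2 fold change of 1.99. Tac1, the substance P precursor, gave 534, 625 and 302 CPM in the PV libraries and 0 reads in all 3 dorsal libraries, at least 4090-fold higher in PV. Cort, the cortistatin gene, came to 69.7 ± 35.2 against 0.123 ± 0.108 CPM (514-fold). Pthlh, encoding parathyroid hormone-related protein, gave 102, 23.7 and 76.7 CPM and 0 reads, and Nxph1, a neurexophilin that binds alpha-neurexins, gave 456, 589 and 638 CPM and 0 reads. Bdnf, the neurotrophin released by excitatory neurons, gave 0.289, 0.378 and 0.406 CPM in the PV libraries and 110, 93.9 and 110 CPM in the dorsal libraries (log2 fold change -8.20 ± 0.303, edgeR adjusted p = 7.98e-08). Penk, the enkephalin precursor, was 36.7-fold higher in dorsal CA1, and the processing enzymes Pcsk2 and Cpe were 10.8-fold and 2.76-fold higher there. Per length, the level of Cck in dorsal cells was 1703 ± 20.2 FPKM.

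Of 19 neuropeptide receptors tested 10 were higher in dorsal CA1 and 6 in PV, with a median log2 fold change of -3.24. Among opioid receptors, Oprm1 and Oprd1 were higher in PV and Oprl1, the nociceptin receptor, was not called (11.7 ± 1.15 against 18.5 ± 6.51 CPM). Oprm1, the mu receptor, was 6266-fold (95% counting interval 1137 to 250459) higher in PV, at 83.3 ± 36.9 CPM, and Oprd1, the delta receptor, gave 114, 135 and 198 CPM in the PV libraries and 0.478, 0.239 and 0 CPM in the dorsal libraries (log2 fold change 9.19 ± 0.609, edgeR adjusted p = 2.9e-06). Cckbr, a receptor for cholecystokinin, came to 37.3 ± 13.1 against 0.508 ± 0.421 CPM (70.6-fold higher in PV) while Cck itself was higher in dorsal CA1. The neuropeptide Y receptors Npy1r, Npy2r and Npy5r were 69.6-fold, 18.3-fold and 47.1-fold higher in dorsal CA1 while Npy was read only in the PV libraries of this comparison. Adcyap1r1, the PACAP receptor, came to 268 ± 43.4 against 19.1 ± 2.31 CPM and was 13.7-fold higher in PV.

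Of 30 monoamine and acetylcholine receptors tested 14 were higher in dorsal CA1, 8 in PV and 8 were not called. Chrm1, the M1 muscarinic receptor, gave 29.6, 29.8 and 54.5 CPM in the PV libraries and 420, 384 and 371 CPM in the dorsal libraries (log2 fold change -3.40 ± 0.247, edgeR adjusted p = 5.32e-06), and Chrm2, the M2 receptor, gave 65.7, 75.5 and 109 CPM in the PV libraries and 0 reads in all 3 dorsal libraries (at least 699-fold higher in PV). Htr1a, the serotonin receptor of CA1 pyramidal cells, came to 0.811 ± 0.561 against 174 ± 27.5 CPM (log2 fold change -7.76 ± 0.521, edgeR adjusted p = 3.15e-06), and Htr5b was at least 248-fold higher in dorsal CA1. Drd1, a dopamine receptor, was at least 105-fold higher in PV at 12.5 ± 3.11 CPM, whereas its relative Drd5 was 10.4-fold higher in dorsal CA1 (1.49 ± 0.686 against 15.4 ± 2.33 CPM). Adra1a, an adrenergic receptor, and Hrh3, a histamine receptor, were 198-fold and 22.1-fold higher in PV. Among 8 cannabinoid genes Dagla and Faah were 3.06-fold and 7.31-fold higher in dorsal CA1, as was Cnr1 (7.69-fold), the CB1 receptor. Napepld was 4.69-fold higher in PV, and the Mgll call there was lost in 4 of 17 alternatives.

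Of 38 release genes tested 14 were higher in PV and 14 in dorsal CA1. Some relatives, set side by side after their values were seen, took opposite sides. Syt2, the fast calcium sensor of PV terminals, gave 586, 467 and 584 CPM in the PV libraries and 0.0399, 0.0342 and 0.225 CPM in the dorsal libraries (log2 fold change 12.43 ± 0.389, edgeR adjusted p = 2.74e-08). Cplx1, a complexin that clamps and promotes fusion, gave 1568, 1489 and 1311 CPM in the PV libraries and 60.9, 74.9 and 66.2 CPM in the dorsal libraries (log2 fold change 4.41 ± 0.138, edgeR adjusted p = 2.74e-08), and Cplx2 gave 30.1, 20.4 and 22.9 CPM in the PV libraries and 311, 442 and 325 CPM in the dorsal libraries (log2 fold change -3.90 ± 0.22, edgeR adjusted p = 1e-06). Sv2a, a vesicle glycoprotein, came to 756 ± 65.4 against 160 ± 20.3 CPM (4.61-fold higher in PV). Its relative Sv2b gave 2.76, 3.03 and 2.07 CPM in the PV libraries and 1115, 1138 and 1084 CPM in the dorsal libraries (log2 fold change -8.75 ± 0.187, edgeR adjusted p = 5.44e-09). Vamp1 was 23.1-fold higher in PV (359 ± 84.4 against 15.2 ± 3.77 CPM), and Vamp2, the more widely used vesicle SNARE, was not called (809 ± 102 against 626 ± 37.6 CPM), though 7 of 17 alternatives called it, higher in PV. Rph3a, a Rab3 effector, was 114-fold higher in PV. The priming factors Unc13a and Unc13b were 3.13-fold and 8.85-fold higher in dorsal CA1. Snap25, a target SNARE, showed the largest difference in CPM of the named genes higher in PV, with 7581, 7804 and 8363 CPM in the PV libraries and 3826, 4327 and 3696 CPM in the dorsal libraries (1.96-fold).

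Genes of the excitatory postsynapse stood on the pyramidal side, with 27 of 31 tested higher in dorsal CA1, 2 higher in PV and a median log2 fold change of -2.69. Camk2a, the alpha subunit of CaMKII, gave 236, 234 and 292 CPM in the PV libraries and 2484, 2563 and 2341 CPM in the dorsal libraries (log2 fold change -3.31 ± 0.118, edgeR adjusted p = 6.2e-08). Camk2b was 6.38-fold higher in dorsal CA1, and the 2 genes on the other side were the remaining subunits, Camk2d (68 ± 17 against 11.7 ± 4.77 CPM, 5.72-fold) and Camk2g (160 ± 11.5 against 62.5 ± 19.4 CPM, 2.51-fold). Ppp3ca, the calcineurin catalytic subunit, gave 199, 229 and 273 CPM in the PV libraries and 4441, 4735 and 4169 CPM in the dorsal libraries (log2 fold change -4.28 ± 0.13, edgeR adjusted p = 2.4e-08), and Ppp3r1, its regulatory subunit, gave 149, 219 and 229 CPM in the PV libraries and 4064, 3817 and 4185 CPM in the dorsal libraries (20.7-fold). Itpka, a spine kinase for inositol trisphosphate, gave 0.165, 0.303 and 0.325 CPM in the PV libraries and 202, 201 and 172 CPM in the dorsal libraries (log2 fold change -9.50 ± 0.287, edgeR adjusted p = 2.4e-08). Atp2b1, a plasma membrane calcium pump, had the largest difference in CPM of all named genes, with 219, 261 and 281 CPM in the PV libraries and 5872, 5845 and 5260 CPM in the dorsal libraries (log2 fold change -4.51 ± 0.116, edgeR adjusted p = 1.48e-08). Rasgrp1, a calcium-responsive Ras activator, gave 38, 21.9 and 53.9 CPM in the PV libraries and 3131, 2891 and 2715 CPM in the dorsal libraries (log2 fold change -6.29 ± 0.316, edgeR adjusted p = 4.71e-07).

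**Figure D4:**
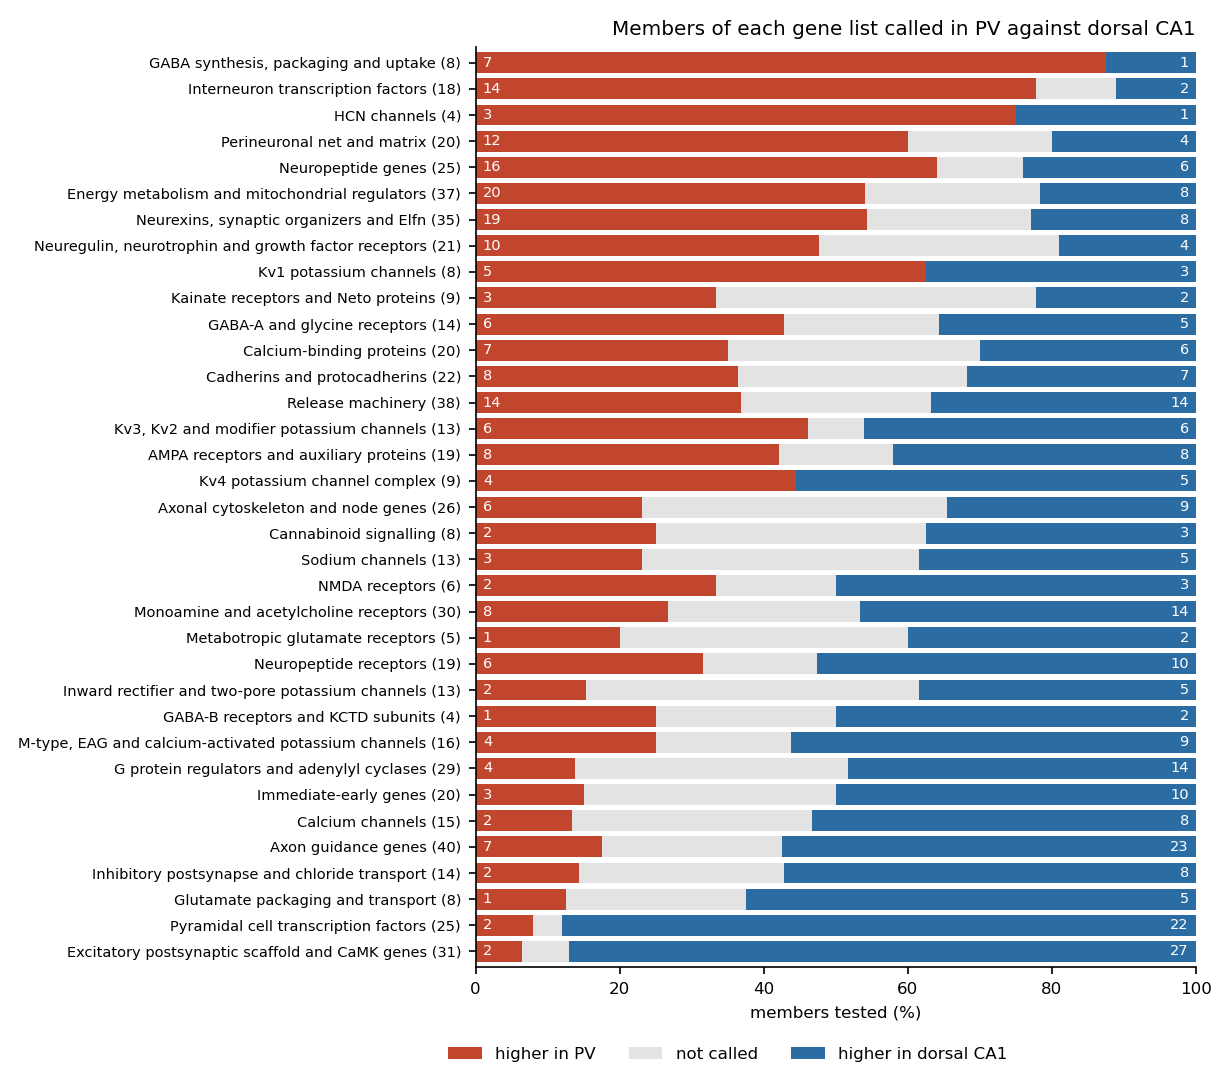
Share of the tested members of each list of genes grouped by role (percent, lists of cell type markers left out, number tested in brackets) that were higher in PV (red), not called (grey) or higher in dorsal CA1 (blue), with counts in the bars, sorted by the difference of the 2 shares. Genes of GABA synthesis stand at 1 end with 7 of 8 higher in PV and the excitatory postsynaptic genes at the other with 27 of 31 higher in dorsal CA1, against 18.9 and 17.6% of all tested genes.

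Of 35 neurexin and synaptic organizer genes tested 19 were higher in PV and 8 in dorsal CA1. Cntnap4, a neurexin-family protein of interneurons, came to 221 ± 32.9 against 0.806 ± 0.0853 CPM (log2 fold change 8.06 ± 0.251, edgeR adjusted p = 2.74e-08), and Elfn1, a postsynaptic organizer that recruits metabotropic receptors, to 88.3 ± 29.9 against 0.487 ± 0.46 CPM (179-fold). Lrrtm3 and Lrrtm4 were 81.5-fold and 91.4-fold higher in PV. Cntnap2, another neurexin-family gene, was 2.91-fold higher in dorsal CA1.

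Of 20 perineuronal net and matrix genes tested 12 were higher in PV, 4 in dorsal CA1 and 4 were not called, with a median log2 fold change of 2.40. Hapln1, a link protein that ties hyaluronan to proteoglycans, gave 136, 156 and 149 CPM in the PV libraries and 0 reads in all 3 dorsal libraries, at least 1234-fold higher in PV. Spock1 and Spock3, testican proteoglycans, were 91-fold and 16.8-fold higher in PV, and Sparcl1, a secreted synaptogenic protein, gave 1482, 1480 and 1345 CPM in the PV libraries and 58.5, 91.4 and 72.4 CPM in the dorsal libraries (log2 fold change 4.25 ± 0.175, edgeR adjusted p = 1.46e-07). Ncan, the neurocan core protein, was 9.44-fold higher in dorsal CA1 (61.1 ± 13.6 against 566 ± 23.5 CPM), as was the sulfotransferase Chst11 (10-fold). Tnr, the tenascin-R gene of the nets, was not called (113 ± 25 against 135 ± 31.3 CPM).

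Of 21 growth factor and receptor genes tested 10 were higher in PV and 4 in dorsal CA1. Erbb4, the neuregulin receptor of PV cells, gave 1475, 1244 and 2048 CPM in the PV libraries and 0, 0 and 0.225 CPM in the dorsal libraries (log2 fold change 14.43 ± 0.554, edgeR adjusted p = 1.01e-07). The GDNF receptor Gfra1 came to 89.1 ± 17.1 against 0.471 ± 0.167 CPM (184-fold higher in PV). Ntrk2, the receptor of BDNF, was not called (609 ± 74.7 against 500 ± 110 CPM), while Bdnf stood on the dorsal side. Of 22 cadherins and protocadherins 8 were higher in PV, led by Cdh13 (186 ± 62.6 against 1.21 ± 0.47 CPM, 152-fold), and 7 in dorsal CA1, led by Pcdh20 (1.48 ± 1.69 against 160 ± 1.92 CPM, 110-fold).

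Of 40 axon guidance genes tested 23 were higher in dorsal CA1, 7 in PV and 10 were not called, with a median log2 fold change of -1.43. Sema3e, a secreted semaphorin, came to 0.625 ± 0.409 against 257 ± 13.9 CPM (log2 fold change -8.69 ± 0.395, edgeR adjusted p = 2.53e-07). The ephrin receptors Epha4, Epha6 and Epha7 were 18.2-fold, 8.14-fold and 10-fold higher in dorsal CA1. Unc5d and Slit2 were 564-fold and 9.19-fold higher in PV. Of 26 cytoskeleton and node genes 9 were higher in dorsal CA1 and 6 in PV. Nefh, the heavy neurofilament of thick axons, gave 269, 218 and 279 CPM in the PV libraries and 28.1, 27.8 and 21.6 CPM in the dorsal libraries (log2 fold change 3.28 ± 0.185, edgeR adjusted p = 1e-06), and Nefl, the light one, gave 126, 184 and 263 CPM in the PV libraries and 645, 690 and 637 CPM in the dorsal libraries (log2 fold change -1.82 ± 0.224, edgeR adjusted p = 0.000167). Ank1, an ankyrin, came to 288 ± 89.4 against 3.99 ± 1.9 CPM (70.6-fold higher in PV), and Ank3, the ankyrin-G of the initial segment, was 1.58-fold higher in dorsal CA1.

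Of 37 energy genes tested 20 were higher in PV, 8 in dorsal CA1 and 9 were not called, with a median log2 fold change of 0.64. Ldhb, the lactate dehydrogenase subunit that favours lactate use, gave 956, 893 and 1021 CPM in the PV libraries and 110, 164 and 128 CPM in the dorsal libraries (log2 fold change 2.81 ± 0.16, edgeR adjusted p = 1.05e-06), and Ldha, the subunit that favours lactate production, gave 22.2, 38.9 and 21.9 CPM in the PV libraries and 281, 264 and 226 CPM in the dorsal libraries (log2 fold change -3.24 ± 0.248, edgeR adjusted p = 7.23e-06). Ppargc1a, a coactivator of mitochondrial genes that is high in PV cells, gave 473, 389 and 450 CPM in the PV libraries and 102, 104 and 83.8 CPM in the dorsal libraries (4.45-fold), and its partner Esrrg came to 190 ± 37.7 against 13 ± 3.66 CPM (14.3-fold). Cox6a2, a muscle-type cytochrome oxidase subunit, gave 55, 37.8 and 41.2 CPM and 0 reads, at least 375-fold higher in PV. Atp1b1, a sodium pump subunit, gave 6497, 6311 and 6826 CPM in the PV libraries and 3447, 3382 and 3370 CPM in the dorsal libraries (1.89-fold).

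The subunit genes of the respiratory chain were then counted by symbol, a family chosen after its values were seen. Of 78 nuclear genes of the chain and ATP synthase tested, 73 were higher in PV and 0 in dorsal CA1, with a median log2 fold change of 1.38, and 75 had every PV library above every dorsal library. Their summed level was 17504, 15396 and 15344 CPM in the PV libraries and 6467, 7564 and 6323 CPM in the dorsal libraries, so the groups did not overlap. Of 15 tested genes of the mitochondrial genome 14 were higher in PV (median 1.41), and of 83 cytosolic ribosomal protein genes 53 were higher and 0 lower (median 0.93). Ribosomal protein genes share reads with near-identical copies, and their count ran from 37 to 58 when 1 library was left out, with 3 genes lower without PV replicate 1 and 2 lower by DESeq2. Summed respiratory levels were also above dorsal CA1 in libraries of other CA1 pyramidal cells, at 10047 ± 285 CPM in proximal and 12083 ± 669 CPM in distal CA1 against 6785 ± 680 CPM in dorsal and 16081 ± 1233 CPM in PV cells. SST cells stood at 11597 ± 2608 CPM. Against SST cells 1 of the 78 nuclear respiratory genes was called higher in PV, as were 4 of the 15 mitochondrial-genome genes. None of the 83 ribosomal protein genes was, and the share over all genes tested there was 1.62%. Summed ribosomal levels were 7187 ± 697 and 8939 ± 405 CPM in proximal and distal CA1 and 10048 ± 2789 CPM in SST cells, against 6990 ± 1323 CPM in PV and 4003 ± 236 CPM in dorsal cells. For the mitochondrial-genome genes the sums were 221902 ± 40843 CPM in PV and 97170 ± 3112 CPM in dorsal cells. Most of these sums was ribosomal RNA: mt-Rnr1 and mt-Rnr2 came to 50923 and 143490 CPM in PV and to 33412 and 52991 CPM in dorsal cells. Libraries of dorsal CA3 (203092 ± 12856 CPM), amygdala-projecting ventral CA1 (194062 ± 23747 CPM) and SST cells (166375 ± 43876 CPM) overlapped those of PV cells. So did libraries of ventral dentate (173897 ± 31479 CPM) and ventral CA3 cells (165996 ± 19479 CPM). Proximal and distal CA1 stood at 80969 ± 2172 and 78803 ± 2944 CPM, below dorsal CA1. The PV libraries held the higher mitochondrial and the lower ERCC read shares given above, and the part of both shares in these family results was not tested.

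**Figure D5:**
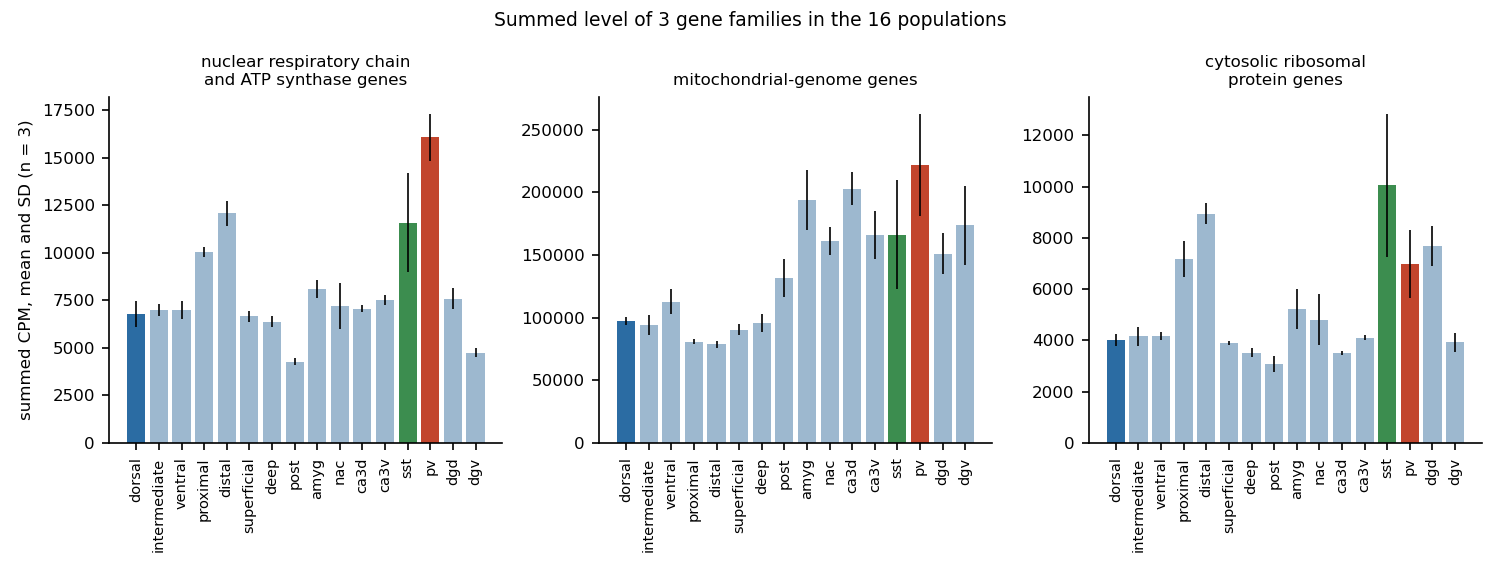
Summed CPM of 3 gene families in each of the 16 populations (bars, mean with SD over 3 libraries, axes from 0), with PV in red, SST in green and dorsal CA1 in dark blue. PV cells stand highest for the nuclear respiratory genes, at 16081 CPM, while the ribosomal protein genes stand higher in SST, distal CA1, proximal CA1 and dorsal dentate (dgd) cells than in PV cells. Of the 78 nuclear respiratory genes, 1 was called higher in PV than in SST cells.

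Of 20 immediate-early genes tested 10 were higher in dorsal CA1 and 3 in PV, with a median log2 fold change of -1.41. Egr1 gave 91.2, 56 and 26.6 CPM in the PV libraries and 382, 419 and 719 CPM in the dorsal libraries (log2 fold change -3.16 ± 0.432, edgeR adjusted p = 0.000327), and Nr4a3 and Nr4a1, nuclear receptors induced by activity, were 134-fold and 18.9-fold higher in dorsal CA1. Jun was 7.94-fold higher in PV (37 ± 20.1 against 4.59 ± 3.53 CPM). Of 29 G protein regulators, cyclases and phosphodiesterases 14 were higher in dorsal CA1 and 4 in PV. Pde1a, a calmodulin-activated phosphodiesterase, came to 7.96 ± 3.62 against 693 ± 93.1 CPM (log2 fold change -6.47 ± 0.326, edgeR adjusted p = 4.75e-07), and Rgs14, known from area CA2, to 0.0532 ± 0.0623 against 27.1 ± 6.03 CPM. Gnal, a stimulatory G protein subunit, was 20.7-fold higher in PV, and Rgs10 was 2477-fold (95% counting interval 505 to 111239) higher there.

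The SST libraries show which of these genes differed between the 2 interneuron populations, and since that comparison uses the same PV libraries its values are set beside the others and not added to them. Of 13633 genes tested 478 (3.51%) were called, 221 higher in PV (1.62%) and 257 higher in SST (1.89%). These counts moved with single libraries: 230, 289 and 230 genes were called without PV replicates 1, 2 and 3, and the number higher in PV was 91, 123 and 100 without them and 135 and 372 without SST replicates 1 and 3. The number higher in SST was 139, 166 and 130 without PV replicates 1, 2 and 3. Of the 17 PV interneuron markers 10 were higher in PV than in SST. Pvalb passed narrowly (log2 fold change 3.71 ± 0.863, edgeR adjusted p = 0.0439), and Tac1 was not called (3.42 ± 0.922, edgeR adjusted p = 0.0814). Syt2 came to 546 ± 68 CPM in PV and 1.36 ± 0.571 CPM in SST (log2 fold change 8.62 ± 0.386, edgeR adjusted p = 5.61e-06), and Erbb4 to 1589 ± 414 CPM and 94.1 ± 20.8 CPM (log2 fold change 4.05 ± 0.27, edgeR adjusted p = 5.49e-05). Pthlh was 0.0166 ± 0.0288 CPM in SST cells and 67.6 ± 40.1 CPM in PV cells. Kcng4 stood at 0.0499 ± 0.0865 CPM in SST cells and Gabrd at 2.16 ± 2.46 CPM, both below PV (log2 fold change 4.65 ± 0.775, edgeR adjusted p = 0.00833 for Gabrd). Kcnc1 was higher in PV (log2 fold change 1.65 ± 0.262, edgeR adjusted p = 0.00638), while Lhx6 (106 ± 5.96 CPM in SST), Sox6 (111 ± 56.3 CPM) and Nxph1 (537 ± 127 CPM) were not called between the 2. Of 29 excitatory postsynaptic genes 2 were higher in PV than in SST and 0 lower, and of 37 release genes 3 were higher and 4 lower. Cplx2 was lower in PV than in SST (log2 fold change -3.54 ± 0.282, edgeR adjusted p = 0.000139), and so was Scn3b (log2 fold change -5.43 ± 0.345, edgeR adjusted p = 5.49e-05), in addition to being lower than in dorsal CA1.

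Pyramidal cells of ventral CA1 gave a second reference for the same PV libraries, at a lower depth of 5116568 to 8354457 gene reads. Of 13039 genes tested 4161 were called (31.9%), 2123 higher in PV (16.3%) and 2038 higher in ventral CA1 (15.6%). Some of the genes with the largest folds against dorsal CA1 had lower levels in the ventral than in the dorsal libraries. Dorsal and ventral cells were not tested against each other here. Wnt2, a secreted signal, gave 18.1, 11.3 and 9.15 CPM in the dorsal libraries, 0 reads in the PV libraries and 0.125, 0.362 and 0.808 CPM in the ventral libraries. Lefty1, a TGF-beta family antagonist, gave 19.2, 36.4 and 28.4 CPM in dorsal and 8.52, 5.25 and 9.93 CPM in ventral libraries, with 0 reads in PV. Lefty1 was thus also called higher in ventral CA1 than in PV (edgeR adjusted p = 0.000347). Others were shared by both pyramidal groups: Crym, encoding mu-crystallin, came to 264 ± 30.4 CPM in ventral cells and 95 ± 15.6 CPM in dorsal cells (2381-fold (95% counting interval 828 to 11739) higher in dorsal than in PV), and Stum to 1104 ± 32 CPM and 968 ± 45.1 CPM against 1.18 ± 0.78 CPM in PV. Zdhhc23, a palmitoyl transferase, had 0 reads in PV, with 33.6 ± 7.52 CPM in ventral cells and 29.3 ± 2.25 CPM in dorsal ones. Ventral cells held 694 ± 91.7 CPM of Hpca and dorsal cells 2550 ± 145 CPM, both above its level in PV (log2 fold change -4.23 ± 0.265, edgeR adjusted p = 3.17e-07 against ventral CA1).

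Across the 16 populations Pvalb was highest in PV cells, at 340 ± 35.9 CPM. It came to 25.5 ± 27.4 CPM in SST cells, with 1.6, 19.6 and 55.4 CPM in the single libraries, to 26.9 ± 46.4 CPM in proximal CA1, of which 80.5 CPM stood in 1 library, and to 12.5 ± 2.24 CPM in distal CA1. It was at or below 0.541 CPM on average in the remaining 12 populations. Among 8162 genes reaching 10 CPM in PV cells, the population means of log2(CPM + 1) most like those of Pvalb were Hspe1 (Pearson r = 0.927 over 16 populations), Ldhb (0.912), Ndufa2 (0.906), Atp5g3 (0.903) and Fam104a (0.901), followed by Ndufv3, Cd164l2, Cerk, Bloc1s2 and Cltb, the last at 0.892. The points share libraries and depth, and Ndufa2 and Atp5g3, respiratory genes, also stood high in proximal and distal CA1 (63.2 and 67.6 CPM for Ndufa2 against 23.8 in dorsal and 78.9 in PV cells). The proximal CA1 mean of Pvalb used in this ranking comes almost wholly from the 1 library at 80.5 CPM. That library also held 44.8 CPM of Gad1, against 0.194 and 0.356 CPM in the other proximal libraries. Its part in the ranking was not tested. Cd164l2 came to 11.2 CPM in PV, 3.23 CPM in SST and at most 0.82 CPM in the other populations.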

How the data were processed

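RNA of hand-sorted neurons was spiked with ERCC RNA, amplified (Ovation RNA-seq v2) and sequenced, per the labels' protocols. The whole-number counts per Ensembl gene are the authors' deposited values, and the submitters' processing notes list the builds mm9 and NCBIM37 and the tools HTSeq, TopHat2 2.0.6, DESeq2 and Cuffdiff 2.1.1, with no roles. Strand is not given in the sources used here, so overlapping antisense genes cannot be told apart. The deposited FPKM values, fragments scaled to gene length and depth by the authors, were used for levels per length and as an alternative measure. The 92 ERCC rows and 5 summary lines stayed out of library sizes and tests, and reads overlapping no gene were 26.9 to 32.9% of those counted. No column was left unmapped. The columns of the count table number the replicates from 1, the sample titles from 0, and the former are used here.

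PV and dorsal CA1 libraries were fitted alone with edgeR 4.0.16 (R 4.3.3, TMM, filterByExpr, robust quasi-likelihood F test, Benjamini-Hochberg over all tested genes, called at adjusted p under 0.05). PV against SST and PV against ventral CA1 were fitted likewise. A gene with 0 reads in 1 group has its fold given against 3 reads per library, and one with 1 to 3 reads has a ratio of means with an exact 95% binomial interval. No 2 libraries were identical. Alternatives used DESeq2 1.42.0, limma 3.58.1 on log2(FPKM + 1), other scalings and filters, left-out libraries and the replicate number as a block. Same-numbered libraries showed no joint deviation, with correlations of deviations of 0.0246, 0.0195 and -0.012. With 3 libraries per group this cannot show whether the replicate numbers pair the samples.

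The comparison and its gene lists were chosen with earlier results of these data known. Some genes that the rule names are not reported here. Genes were named by rule: the 12 largest folds and the 10 largest differences in CPM per direction among called genes with at least 10 CPM and groups apart (predicted, Rik, ribosomal protein, small RNA, mitochondrial-genome and sex-linked genes left out), any member of lists with up to 16 tested genes, otherwise up to 5 called members per direction with the smallest p and up to 3 not called with the highest mean CPM, the label genes, and the 10 genes most like Pvalb. The respiratory and ribosomal families were added after their values were seen, as were the pairs of relatives set side by side. Of 37620 gene IDs 32897 had a symbol in the tables used here.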

Additional observations from a re-analysis of the deposited data

Results flagged for a closer look

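For 6 listed genes reported here PV and SST cells were called on opposite sides of the same dorsal CA1 libraries, and PV and SST cells also differed from each other in the edgeR test. Cnr1, the CB1 receptor, had a log2 fold change of -2.94 in PV over dorsal CA1 and 1.45 in SST over dorsal CA1 (PV against SST -4.38, edgeR adjusted p = 0.000837), with 18.9, 387 and 143 CPM in PV, SST and dorsal cells. Clstn2, a calsyntenin, stood at 0.59 and -3.37 (PV against SST 3.98, edgeR adjusted p = 0.000114). Cntnap5b stood at 1.12 and -4.05 (5.18, edgeR adjusted p = 0.00321). Cacna2d3 stood at -0.73 in PV and 1.43 in SST (-2.14, edgeR adjusted p = 0.000669), Chrna4 at -1.40 and 1.47 (-2.85, edgeR adjusted p = 0.00868) and Gng2 at -0.41 and 1.08 (-1.47, edgeR adjusted p = 0.0039). These genes are named for this pattern, seen in their values. Their PV over dorsal CA1 calls were lost in 3 of 17 alternatives for Cacna2d3, 5 for Cntnap5b, 6 for Clstn2, 7 for Chrna4 and 16 for Gng2. The 2 comparisons with dorsal CA1 share its libraries.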

How the results depend on the processing

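Over 17 alternatives the number of genes called between PV and dorsal CA1 ran from 3732 (without dorsal replicate 1) to 6315 (DESeq2), within 1.5 times the 4962 reported, and PV was higher for 48.2 to 54.6% of the calls. Of 213 named genes called, 195 kept the call in all 17 alternatives, 4 with no value in the FPKM fits (Cacna2d1, Dpp10, Gria4 and Scn2a) kept it in the other 14, 14 lost it in at least 1 and none changed direction. Many of these genes were named for large folds or small p in the same libraries. Their counts therefore do not stand for all 4962 called genes. Of 12 named genes not called, 4 (Cacna1b, Calb1, Gria3 and Vamp2) were called in at least 1 alternative. The number called between PV and SST depended more on the setting: DESeq2 called 1487 genes, 643 higher in PV and 844 higher in SST, against 478, 221 and 257. Leaving out 1 library at a time gave 230 to 683 genes, 91 to 372 higher in PV and 130 to 311 higher in SST, with the highest counts without SST replicate 3. The cause was not tested. With a replicate block 4565 genes were called between PV and dorsal CA1, 2256 higher in PV and 2309 higher in dorsal CA1, and 492 between PV and SST and 3786 between PV and ventral CA1. Same-numbered libraries did not deviate together, but with 3 libraries per group this does not settle whether the numbers pair the samples. Upper-quartile scaling moved the median log2 fold change of all tested genes from 0.06 to 0.11. Low counts limit what could be tested: 24036 of 37620 genes had too few reads. With no filter on low counts 22067 genes had at least 1 read in the PV and dorsal libraries. The part of depth in the untested genes was not tested.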
